A study of Homo sapiens with 15 samples.

Results

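HepG2, an established line of human liver cancer cells that makes many of the proteins liver secretes into plasma, was compared by RNA sequencing with and without knockdown of BRG1. The comparison used the 4 libraries labelled with a hairpin against BRG1 and the 4 labelled with a non-silencing hairpin (NS), out of 15 libraries in the series, and took in all 35012 gene symbols counted. The other 7 libraries (3 with a BRM hairpin, 4 with both hairpins) entered the fit to estimate the spread between libraries and return in a closing comparison. Both groups had lentiviral infection in polybrene and puromycin selection, and both were harvested 5 days after transduction, so these steps are common to control and knockdown. The labels give neither the hairpin sequence nor whether the numbered libraries of a group came from separate cultures, so p-values measure the spread between these libraries, which may be technical.

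BRG1 (encoded by SMARCA4) and BRM (encoded by SMARCA2) are alternative ATPases of the SWI/SNF (BAF) complexes, which use the energy of ATP to slide or evict nucleosomes. These complexes open enhancers and promoters to transcription factors, and in liver cells they act at genes that hepatocyte factors switch on. They also work at enhancers bound by AP-1, the Fos and Jun family of factors that follows growth signals.

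Total estimated counts were 11500149 to 22467399 in the NS libraries and 17291281 to 23734366 in the BRG1 libraries. Libraries numbered 1 and 2 (set 1-2) stood apart from those numbered 3 and 4 (set 3-4) in both groups, so changes within each set are given beside the main results. The chi-square per degree of freedom was 5.50 to 25.0 between libraries of 1 group and set and 143.6 to 245.4 between sets of 1 group, so no pair matched within sampling noise. Transcripts of mitochondrial DNA took 8.15 to 8.26% of NS counts and 7.73 to 7.90% of BRG1 counts in set 1-2, against 1.33 to 1.505% and 1.78 to 3.55% in set 3-4. The first principal component held 49.1% of the variance and the second 31.1%. On the first, every BRG1 library (6.30 to 82.8) lay above every NS library (−81.8 to −15.5). The first also parted the sets, with NS at −17.0 and −15.5 in set 1-2 and −81.8 and −70.9 in set 3-4. BRG1 lay at 79.0 and 82.8 in set 1-2 and at 17.1 and 6.30 in set 3-4. Hepatocyte defining genes were detected as labelled, 24 of 25 passing the filter on low counts. Of 10 stellate cell and fibroblast markers, 7 averaged under 1 CPM (counts scaled to library totals by TMM), and their sum was 35.9 to 77.2 CPM in the NS libraries and 62.8 to 250.01 CPM in the BRG1 libraries. Of 13 endothelial and blood cell markers, 9 averaged under 1 CPM and CD3E was at 0, and their sum was 488 to 1703 CPM in the NS libraries and 694 to 1413 CPM in the BRG1 libraries, most of it LYZ. In bulk RNA, fewer cells of a type and less RNA per cell cannot be told apart. No tested member of these 2 lists was called, though 1 stromal marker was without BRG1 3, BRG1 4 or NS 1.

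SMARCA4 (chromosome 19, 10960825 to 11079426, plus strand, GRCh38), the target of the hairpin, held 312, 297, 310.3 and 310.1 CPM in NS libraries 1 to 4 and 29.3, 29.002, 28.6 and 24.4 CPM in BRG1 libraries 1 to 4. Its log2 change was −3.46 ± 0.17 (± SE, edgeR, adjusted p = 3.89e-08), with −3.38 and −3.55 within the sets. SMARCA2, the paralog, changed by −0.61 ± 0.23 (adjusted p = 0.0712), which did not pass, although it passed under 7 other settings, with a block for replicate number over 15 libraries (adjusted p = 0.0261) or 8 (0.0110), a set term (0.0258), 8 libraries only (0.0120), DESeq2 (0.0186), without NS 2 (0.0478) and within set 3-4 (0.0351). Among the other SWI/SNF subunits, PHF10, a subunit of the PBAF form, fell from 118 ± 28.9 to 47.0 ± 2.08 CPM (mean ± SD, n = 4), or by 1.33 ± 0.27 on the log2 scale (adjusted p = 0.00282). SS18 (log2 change of 0.59 ± 0.19) and SMARCC2 (0.51 ± 0.15) rose by less. The SMARCC2 call was lost without any 1 library other than BRG1 3 or NS 3 (adjusted p of 0.0518 to 0.107) and with no filter on low counts (0.0700). The SS18 call was lost without any 1 library other than BRG1 3, BRG1 4 or NS 4 (0.0744 to 0.185), within set 3-4 (0.290) and with upper-quartile scaling, either other filter or 8 libraries only (0.0571 to 0.0857). In all 2 of 24 tested subunits beside BRG1 rose and 1 fell, shares below the 12.5% and 9.97% of all genes tested. Under the block 6 rose and 4 fell, where 2856 and 2462 of all 14621 genes did. The higher share was not below that of all genes there. The lower count became 2 without NS 2, and the higher count was 0 or 1 without any 1 library other than BRG1 3.

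A gene was called at an edgeR adjusted p under 0.05. Of 14621 genes tested, 3284 (22.5%) were called, 1826 higher (12.5%) and 1458 lower (9.97%) after BRG1 knockdown. With the replicate number as a block 5318 were called, 2856 higher and 2462 lower, and all 3284 were among them. Counts of list members given below are to be read against 12.5% and 9.97%. Their block counts are to be read against 2856 and 2462 of 14621. Within set 1-2, 5921 genes were called (40.5%), and within set 3-4, 3989 (27.3%). The same direction was called in both sets for 1582 higher (10.8%) and 1223 lower genes (8.36%), and opposite directions for 43 (0.294%). Of the 3284 genes, 3282 had the same sign in both sets, 2338 were also called in both, 912 in only 1 of them and 34 in neither. A change of at least 2-fold was seen in 1081 of the higher and 855 of the lower genes. Among genes called alike in both sets, the change was larger in set 1-2 for 1684 and in set 3-4 for 1121, with a median size of 1.28 and 1.08 on the log2 scale. The median change of all genes tested was 0.02 (0.01 in set 1-2 and 0.05 in set 3-4). The set difference, tested gene by gene in a fit with both sets, passed for 364 genes (2.49%), 225 more positive (1.54%) and 139 more negative (0.951%) in set 3-4. Groups of libraries did not overlap for 2254 genes higher (15.4%) and 1909 lower (13.1%). Counts between sets rest on pairs of libraries. With any 1 library left out 24 to 126 set differences passed, genes called in opposite directions numbered 37 without BRG1 1, 30 without BRG1 4 and 9 to 27 without any other, and genes called alike in both sets 1798 without NS 3 and 1808 without BRG1 3.

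**Figure D1:**
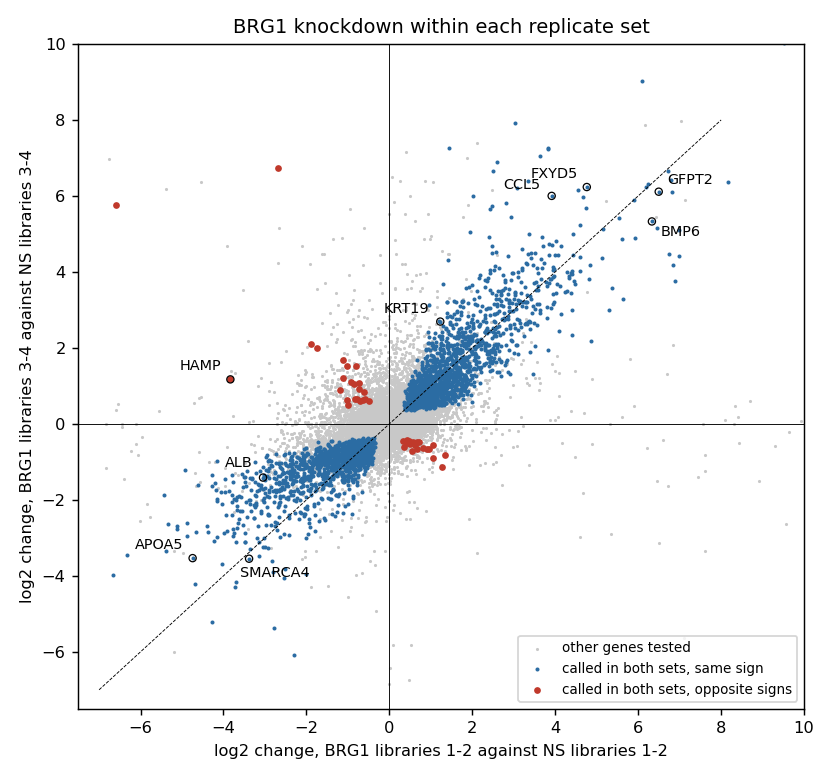
Log2 change (BRG1 minus NS) within libraries 1 and 2, horizontal axis, against that within libraries 3 and 4, vertical axis, 1 point per tested gene. Genes called alike in both sets (2805) lie along the rising diagonal, the 43 called in opposite directions are marked apart, and 11 genes lie outside the axes.

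The largest increases began at a few CPM or less, except for GPRC5A, and rose in every BRG1 library. GFPT2 (chromosome 5, 180300690 to 180353387, minus strand), which makes glucosamine phosphate for the hexosamine pathway, held 0.825, 0.480, 1.48 and 0.929 CPM in NS libraries 1 to 4 and 66.0, 59.0, 71.0 and 87.2 CPM in BRG1 libraries 1 to 4. It rose by 6.27 ± 0.37 on the log2 scale (adjusted p = 3.2e-07), by a like amount in both sets. BMP6 (chromosome 6, 7726797 to 7881422, plus strand), a secreted ligand that drives hepcidin in hepatocytes, held 0.583, 0.721, 0.184 and 0.372 CPM in the NS libraries and 50.6, 53.2, 13.5 and 11.55 CPM in the BRG1 libraries. Its change was 6.07 ± 0.59, with 6.33 in set 1-2 and 5.33 in set 3-4, and its levels were lower in set 3-4 in both groups. EMP1 (chromosome 12, 13196716 to 13219939, plus strand), a small membrane protein of epithelia, held 3.11, 3.84, 1.57 and 3.62 CPM and then 180.5, 158, 79.3 and 84.1 CPM, a change of 5.35 ± 0.42. FXYD5 (chromosome 19, 35154730 to 35169883, plus strand), a regulator of the sodium pump also called dysadherin, held 1.99, 1.20, 0.646 and 0.790 CPM and then 51.1, 38.9, 59.9 and 52.0 CPM (5.40 ± 0.46). The choice of genes required that the groups not overlap. In each of these genes the lowest BRG1 library was many times the highest NS library.

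Growth signalling and membrane repair genes followed. NRG1 (chromosome 8, 31639386 to 32767959, plus strand), a ligand of the ERBB receptors, held 4.37, 4.32, 0.553 and 0.883 CPM in the NS libraries and 110.2, 112, 55.1 and 41.5 CPM in the BRG1 libraries, a change of 4.96 ± 0.61 (adjusted p = 6.73e-05). GPRC5A (chromosome 12, 12890782 to 12917937, plus strand), an orphan receptor induced by retinoic acid, held 11.99, 11.53, 11.8 and 20.6 CPM and then 289, 282, 349 and 342 CPM (4.49 ± 0.46). Its BRG1 level varied little between the sets. DYSF, which reseals torn plasma membrane, rose by 4.96 ± 0.60, and EHD2, a coat protein at the neck of caveolae, by 4.72 ± 0.47. LBH, a transcription cofactor, rose by 4.87 ± 0.62 and MYEOV, amplified in some myelomas, by 4.31 ± 0.47. All 6 genes rose in both sets, with no overlap between groups, as the choice of genes required.

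The 10 largest decreases, of which SMARCA4 is 1, had varied known roles. APOA5 (chromosome 11, 116789367 to 116792420, minus strand), which raises the clearance of triglycerides, held 18.2, 17.4, 26.4 and 17.9 CPM in the NS libraries and 0.473, 0.879, 1.87 and 1.92 CPM in the BRG1 libraries and fell by 3.95 ± 0.42 (adjusted p = 2.23e-05). MBNL3 (chromosome X, 132369317 to 132489968, minus strand), a muscleblind splicing regulator, held 476, 450.1, 403 and 484 CPM and then 46.7, 54.3, 51.7 and 59.7 CPM, a fall of 3.09 ± 0.21 on the log2 scale. Its libraries were tight within both groups and sets. FREM1 (chromosome 9, 14734666 to 14910995, minus strand), a matrix protein of embryonic basement membranes, held 11.51, 12.2, 52.9 and 65.4 CPM and then 1.58, 1.34, 5.31 and 7.22 CPM, and fell by 3.20 ± 0.64. Levels were several-fold higher in set 3-4 in both groups, with changes of −3.003 and −3.24 in sets 1-2 and 3-4.

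AKR1B10, which reduces retinal and lipid aldehydes, held 94.7, 110.0, 114 and 106 CPM and then 3.04, 3.98, 12.5 and 15.8 CPM. It fell by 3.59 ± 0.55, with log2 changes of −4.87 in set 1-2 and −2.96 in set 3-4, a set difference that passed (adjusted p = 0.00964) but not without NS 4 (0.0753). AKR1B1 and AKR1B15 are close paralogs, so the split of reads between them is uncertain. AGXT, the peroxisomal enzyme that clears glyoxylate, fell from 23.9 ± 17.2 to 2.98 ± 2.74 CPM, ACSM3, a medium-chain acyl-CoA synthetase, from 84.9 ± 30.2 to 9.001 ± 1.49 CPM, and SLC13A3, a carrier of dicarboxylates, from 32.1 ± 18.1 to 3.99 ± 2.28 CPM. COL2A1, a cartilage collagen, fell from 22.1 ± 14.9 to 2.59 ± 2.24 CPM and SMIM24, a small membrane protein, from 22.9 ± 8.49 to 1.58 ± 1.02 CPM. ACSM3 overlaps ERI2 and SLC13A3 overlaps TP53RK in the annotation, and counting with no stated strand leaves those 2 values uncertain. The same holds for PEG10, TF, APOC2, ITIH4, ALDH6A1, PIPOX, RAD54L, SMC4, TIAM2 and ADAM19, which each overlap an expressed gene. It also holds for MMP3, TUBB6, TUBA1A, TUBB3, JUNB, GDF11, JAK1, PHF10, SMARCC2 and SLC22A18.

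**Figure D2:**
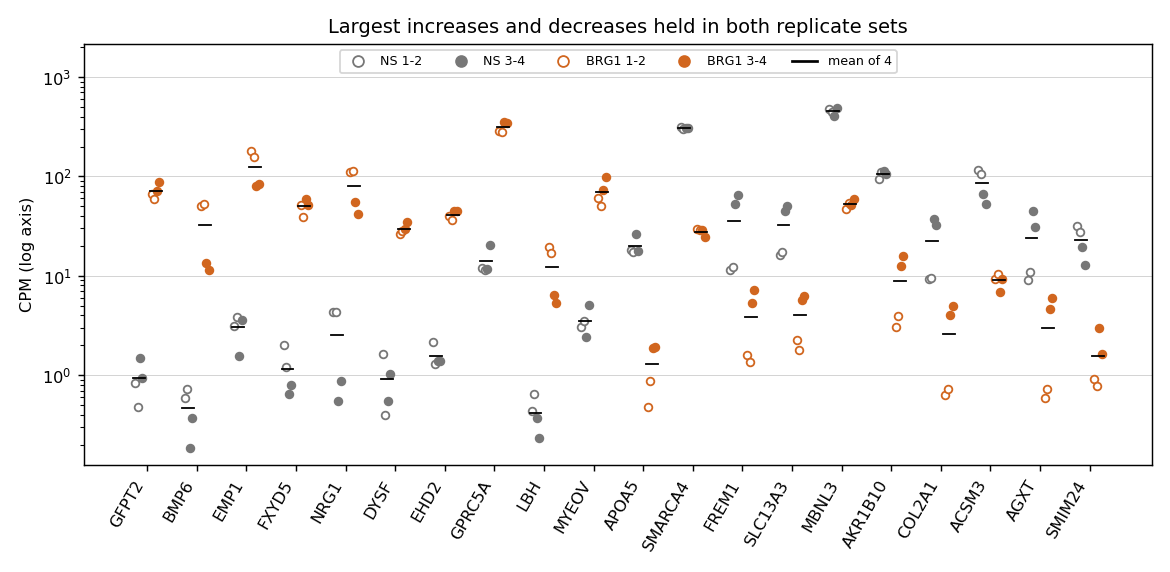
CPM (log axis) of the 10 largest increases and 10 largest decreases in each of the 8 libraries, NS and BRG1 as separate colours. The groups do not overlap for any of these genes, as the choice of genes required, and in both groups FREM1 is higher and NRG1 lower in libraries 3 and 4 than in 1 and 2.

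The promoters of the 2 highest-ranked increases and 2 highest-ranked decreases are printed because these genes have the strongest changes in both sets, SMARCA4 being passed over as the target of the hairpin. EMP1 is added, chosen after its sequence was seen, as the highest-ranked increase with an AP-1 match. A like search for the HNF4 motif given below, among the largest decreases by rank and then by CPM, found no match. Each run holds 250 bases before to 50 after the start (RefSeq, GRCh38.p14), read 5′ to 3′ on the strand of the gene, with motif matches in capitals. Motifs were searched on both strands except the TATA box. The start is that of RefSeq, which for a gene with several starts need not be the GENCODE start given above. A match is a description of letters, not a binding site.
GFPT2 promoter, chr5:180353287-180353586, minus strand: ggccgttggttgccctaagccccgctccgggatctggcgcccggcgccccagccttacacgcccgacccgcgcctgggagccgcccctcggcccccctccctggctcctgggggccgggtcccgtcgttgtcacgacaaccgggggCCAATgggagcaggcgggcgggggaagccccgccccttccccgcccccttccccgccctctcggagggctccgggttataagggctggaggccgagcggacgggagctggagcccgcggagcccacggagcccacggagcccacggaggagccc
BMP6 promoter, chr6:7725849-7726148, plus strand: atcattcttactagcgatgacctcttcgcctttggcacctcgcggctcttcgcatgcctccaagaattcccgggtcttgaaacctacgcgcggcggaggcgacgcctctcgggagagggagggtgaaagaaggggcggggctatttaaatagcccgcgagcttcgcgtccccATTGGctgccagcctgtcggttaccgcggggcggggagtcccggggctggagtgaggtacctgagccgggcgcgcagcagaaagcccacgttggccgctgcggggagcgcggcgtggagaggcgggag
APOA5 promoter, chr11:116792371-116792670, minus strand: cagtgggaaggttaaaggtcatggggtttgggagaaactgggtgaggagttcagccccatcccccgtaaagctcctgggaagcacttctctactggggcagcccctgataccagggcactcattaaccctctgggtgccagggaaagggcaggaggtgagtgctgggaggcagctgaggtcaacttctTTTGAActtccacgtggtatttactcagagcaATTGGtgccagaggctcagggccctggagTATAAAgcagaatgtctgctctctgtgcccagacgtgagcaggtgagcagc
FREM1 promoter, chr9:14910946-14911245, minus strand: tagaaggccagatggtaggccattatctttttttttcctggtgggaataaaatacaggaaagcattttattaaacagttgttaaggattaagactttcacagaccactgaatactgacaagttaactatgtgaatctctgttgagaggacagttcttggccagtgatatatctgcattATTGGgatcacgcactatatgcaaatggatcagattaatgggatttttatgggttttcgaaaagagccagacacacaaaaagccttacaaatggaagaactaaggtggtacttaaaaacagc
EMP1 promoter, chr12:13196476-13196775, plus strand: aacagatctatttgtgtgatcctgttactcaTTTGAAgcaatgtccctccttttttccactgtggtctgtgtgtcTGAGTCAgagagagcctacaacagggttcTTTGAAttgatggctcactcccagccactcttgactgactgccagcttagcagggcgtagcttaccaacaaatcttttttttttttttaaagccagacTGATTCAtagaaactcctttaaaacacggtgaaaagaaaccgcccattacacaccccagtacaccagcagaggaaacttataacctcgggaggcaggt
GFPT2 holds a CCAAT box 104 bases before the start and BMP6 its reverse, ATTGG, 78 bases before. FREM1 holds ATTGG 72 bases before the start. APOA5 holds TTTGAA, the CHR element, 62 bases before, ATTGG 30 bases before and TATAAA 1 base before the start used here. EMP1 holds AP-1 matches 175 and 48 bases before (TGAGTCA and TGATTCA) and TTTGAA 219 and 146 bases before.

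Promoters were read for protein-coding genes outside chromosome 8 only, so NRG1 is not among them. In these, the AP-1 motif TGANTCA was in 6.57% of 1020 promoters of genes called higher in the pooled comparison and in both sets, 4.95% of 788 lower ones and 4.55% of 10917 tested. The HNF4 motif CAAAGNNCA was in 7.23% of lower promoters, 2.35% of higher and 3.87% of tested. The CHR element TTTGAA was in 15.6% of lower, 6.37% of higher and 10.0% of tested promoters, and the E2F motif TTTCNCGC in 6.09, 3.14 and 4.63%. The CCAAT box was in 42.5% of lower, 29.6% of higher and 36.6% of tested promoters. GGAATG, bound by TEAD factors, was in 11.3% of higher, 10.5% of lower and 10.9% of tested promoters, and the CRE TGACGTCA in 3.14, 3.30 and 3.15%, so these last motifs were about as frequent in every group. The groups differed in base composition, with a median GC of 67.67% in higher and 64.0% in lower promoters against 65.0% in those tested. Its part in the motif shares was not tested. Promoters were found for 1020 of 1222 higher (83.5%) and 788 of 962 lower (81.9%) protein-coding genes outside chromosome 8.

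Among transcripts measured at the highest levels, the largest losses of CPM named here were mostly of plasma proteins, and the gains included cytoskeletal and keratin genes. CPM is not scaled by length, so these are changes in share of reads. ALB (chromosome 4, 73397114 to 73421412, plus strand), serum albumin, held 6375, 6491, 8579 and 8182 CPM in NS libraries 1 to 4 and 873, 684, 2912 and 3379 CPM in BRG1 libraries 1 to 4. It fell by 1.92 ± 0.44 (adjusted p = 0.00609), with changes of −3.05 in set 1-2 and −1.41 in set 3-4. No BRG1 library reached the NS range, as the choice of genes required. APOB, the core protein of very low density lipoprotein, fell from 9788 ± 3531 to 2944 ± 1894 CPM (adjusted p = 0.0215). Its pooled call was lost without BRG1 1 (adjusted p = 0.0611), BRG1 2 (0.0591) or NS 4 (0.0624). APOB was called within set 1-2 and within set 3-4 (edgeR adjusted p of 0.00127 and 0.0216). A2M, a protease inhibitor of plasma, fell from 3752 ± 1162 to 807 ± 523 CPM, AFP, fetal albumin, from 3887 ± 1577 to 999.7 ± 615 CPM, C3, the hub of complement, from 1908 ± 364 to 582 ± 329.6 CPM, and TF, the iron carrier, from 1727 ± 391.6 to 463 ± 271 CPM. DHRS2, a mitochondrial dehydrogenase, fell from 1517 ± 141 to 321 ± 157 CPM, and PEG10, a paternally expressed gene of retroviral origin, from 2381 ± 446 to 1033 ± 297 CPM.

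KRT19 (chromosome 17, 41523617 to 41528308, minus strand), a keratin of bile duct cells, held 1213, 1131, 699.9 and 692 CPM in the NS libraries and 2949, 2540.2, 4739 and 4260.0 CPM in the BRG1 libraries. It rose by 1.96 ± 0.38 (1.23 in set 1-2 and 2.69 in set 3-4). MT2A, a metal-binding protein with close paralogs, rose from 312 ± 162 to 1998 ± 738 CPM. AKAP12, a scaffold for protein kinases, rose from 93.2 ± 27.95 to 1386 ± 275 CPM. MYH9, non-muscle myosin, rose from 1017 ± 133 to 2041 ± 88.0 CPM, and TMSB10, a binder of actin monomers that overlaps TRABD2A, from 334 ± 54.4 to 1139.7 ± 167 CPM. HMGA1, an architectural DNA-binding protein, rose from 995 ± 498 to 3268 ± 1576 CPM (adjusted p = 0.034). The pooled call was lost without BRG1 3, BRG1 4, NS 1 or NS 2 (adjusted p of 0.0837, 0.0813, 0.0918 and 0.104) and with no filter on low counts (0.0614). HMGA1 changed by 1.76 in set 1-2 and 1.70 in set 3-4 and was called in both (edgeR adjusted p of 2.52e-06 and 5.57e-06). Genes at 1000 CPM and over were lower more often than higher, 13 against 8 of 80, while 7.07% of 1909 genes under 1 CPM were higher and 5.50% lower.

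Liver genes that sit together in the genome were described cluster by cluster, and in 5 of 7 clusters with tested members more than 1 neighbour fell. In the APOA1-APOC3-APOA4-APOA5 cluster 3 of 4 tested members fell, with a median change of −2.27 (−2.88 in set 1-2 and −1.81 in set 3-4). APOC3, an inhibitor of lipoprotein lipase, fell from 38.9 ± 9.66 to 6.81 ± 2.54 CPM and APOA4, an intestinal and hepatic apolipoprotein, from 2.65 ± 0.597 to 0.643 ± 0.294 CPM. ALB and AFP were the tested members of their cluster and both fell, as above. In the SERPINA cluster of protease inhibitors 6 of 8 fell. SERPINA4, kallistatin, fell from 27.5 ± 4.24 to 2.78 ± 2.28 CPM, SERPINA5, the inhibitor of activated protein C, from 517 ± 72.2 to 164 ± 47.9 CPM, and SERPINA6, the binding globulin for cortisol, from 146 ± 35.2 to 48.7 ± 28.6 CPM. SERPINA4 and SERPINA5 overlap each other in the annotation, so their split of reads is uncertain. All 3 inter-alpha-trypsin inhibitor genes tested together fell, ITIH3 from 70.8 ± 15.4 to 11.9 ± 6.02 CPM, ITIH4 from 1.76 ± 0.390 to 0.188 ± 0.175 CPM and ITIH1 from 1.75 ± 0.560 to 0.419 ± 0.377 CPM. ITIH1 was lost without BRG1 1, BRG1 2 or NS 4 (adjusted p of 0.0519, 0.0818 and 0.0839) and in a fit of 8 libraries only (0.0653). Of the 3 fibrinogen genes 2 were called, FGB from 133 ± 59.7 to 27.3 ± 24.3 CPM and FGG from 449 ± 254 to 97.7 ± 95.02 CPM. FGG was lost without BRG1 1, BRG1 2, NS 3 or NS 4 (adjusted p of 0.0611, 0.0560, 0.0935 and 0.0624), which leaves 1 member called in each case, and with no filter (0.0682). In a fit of 8 libraries only neither was called (FGB 0.0528, FGG 0.0964). The block called 3. FGB changed by −3.66 in set 1-2 and −1.92 in set 3-4, and FGG by −3.79 and −1.88.

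The other 2 clusters moved less evenly. In the APOE-APOC1-APOC4-APOC2 cluster 1 of 3 tested genes fell, APOC2, an activator of lipoprotein lipase, from 83.5 ± 6.78 to 41.1 ± 16.3 CPM. Its change was −1.67 in set 1-2 and −0.55 in set 3-4, where it was not called (adjusted p = 0.159), and 2 members were called without BRG1 3. In the AHSG-FETUB-HRG-KNG1 cluster 1 of 4 fell, FETUB, a fetuin that inhibits proteases, from 1.98 ± 0.605 to 0.756 ± 0.237 CPM (adjusted p = 0.136 within set 3-4), against 2 under the block and 2 without BRG1 4 or NS 4.

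Carriers and enzymes of hepatocytes came next. Of 21 tested solute carriers of hepatocytes 12 fell and 1 rose, with a median change of −1.32 (−1.67 in set 1-2 and −1.07 in set 3-4), and the 1 higher call was lost without BRG1 1, BRG1 2 or BRG1 4. Summed levels were 890.4, 894, 1649 and 1536 CPM in NS libraries 1 to 4 and 331, 361, 670.1 and 828 CPM in BRG1 libraries 1 to 4. SLC22A3, a carrier of organic cations, fell from 30.3 ± 11.3 to 5.18 ± 2.81 CPM, SLC16A10, a carrier of aromatic amino acids, from 15.2 ± 2.35 to 2.93 ± 1.05 CPM, and SLC47A1, an exporter of cations, from 78.6 ± 15.6 to 24.2 ± 7.54 CPM. SLC47A1 changed by −2.36 in set 1-2 and −1.10 in set 3-4.

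Of 26 genes that break down aromatic and branched amino acids 11 fell and 2 rose, with a median change of −0.54 (−0.64 in set 1-2 and −0.51 in set 3-4). ALDH6A1, of valine breakdown, fell from 34.3 ± 2.98 to 8.91 ± 3.94 CPM, and KYNU, of tryptophan breakdown, from 34.0 ± 2.47 to 19.1 ± 2.43 CPM. The higher count was 1 without BRG1 1, BRG1 2, NS 3 or NS 4 and 3 under the block. Of 34 genes of folate and nucleotide synthesis 12 fell and 1 rose. ALDH1L1, which oxidises formyl folate, fell from 48.8 ± 8.52 to 8.22 ± 6.396 CPM. RRM2B, a p53-induced subunit of ribonucleotide reductase, rose from 42.2 ± 2.22 to 84.6 ± 26.3 CPM, with changes of 1.34 in set 1-2 and 0.56 in set 3-4, where it was not called (adjusted p = 0.0602). The lower count was 7 without BRG1 1, BRG1 2, NS 3 or NS 4, the higher 2 without BRG1 3 and 3 under the block.

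Of 32 peroxisomal genes 5 fell and 1 rose, a share near that of all genes, with 9 lower under the block and 8 without BRG1 4, and the higher one was lost without BRG1 4 or NS 2. The called members included EHHADH and HSD17B4, enzymes of peroxisomal fatty acid breakdown (from 45.5 ± 3.80 to 19.3 ± 2.15 CPM and from 175 ± 23.1 to 87.7 ± 7.26 CPM), and PIPOX, which oxidises pipecolate (from 91.4 ± 21.8 to 16.4 ± 10.3 CPM). Of 22 retinoid genes 6 fell and 5 rose. ALDH1A1, which makes retinoic acid, held 701, 609.7, 364 and 344 CPM and then 102, 95.4, 101 and 105 CPM, and fell by 2.32 ± 0.23 (adjusted p = 1.38e-05). RBP5, a cellular retinol binding protein, fell from 10.6 ± 1.94 to 1.98 ± 0.968 CPM, and STRA6, the receptor for retinol binding protein, from 3.66 ± 0.799 to 0.740 ± 0.192 CPM. Higher retinoid genes numbered 2 without BRG1 1 or BRG1 2 and 3 without BRG1 4, NS 1, NS 2 or NS 3.

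Part of the early secretory pathway, which loads and folds secreted proteins, fell as well. Of 32 genes of the translocon, N-glycosylation and disulfide formation 10 fell and 1 rose, with a median change of −0.44 (−0.53 in set 1-2 and −0.40 in set 3-4), and the block called 20 lower and 2 higher. Their sum was 9713 to 13563 CPM in the NS libraries and 6508 to 9589.8 CPM in the BRG1 libraries. RPN2, a subunit of oligosaccharyltransferase, fell from 757 ± 40.9 to 295 ± 91.3 CPM, PDIA3, a disulfide isomerase, from 745 ± 57.7 to 355 ± 93.5 CPM, and CANX, the chaperone calnexin, from 828 ± 157 to 481 ± 42.4 CPM. Of 33 genes of COPI and COPII coats and cargo receptors 5 fell and 1 rose. The lower share was near the 9.97% of all genes, with 11 lower under the block. LMAN1, the receptor that carries coagulation factors V and VIII out of the endoplasmic reticulum, fell from 251 ± 60.3 to 114 ± 17.9 CPM, KDELR2, which returns chaperones to it, from 333 ± 50.1 to 177 ± 21.1 CPM, and TMED10 from 212 ± 20.6 to 150.4 ± 3.42 CPM. The higher call was lost without any 1 library other than BRG1 3 or NS 4. RPN2, PDIA3 and KDELR2 each overlap another expressed gene. Lysosomal and autophagy genes went both ways, 5 of 37 higher and 5 lower, shares near the 12.5% and 9.97% of all genes, with 9 and 6 under the block. ULK1, the kinase that starts autophagy, rose from 30.1 ± 1.75 to 78.7 ± 6.31 CPM, while the proteases CTSC (from 141 ± 19.6 to 75.0 ± 9.29 CPM) and CTSH (from 127 ± 10.6 to 55.5 ± 6.79 CPM) fell.

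Many genes that repair and package DNA fell. Of 30 genes of homologous recombination and Fanconi anaemia repair 10 fell and 1 rose, with a median change of −0.72 (−0.96 in set 1-2 and −0.45 in set 3-4). RAD54L, a motor of recombination, held 27.0, 26.5, 36.9 and 31.8 CPM in the NS libraries and 3.27, 2.64, 11.49 and 11.497 CPM in the BRG1 libraries and fell by 2.08 ± 0.41. EXO1, a nuclease that trims broken ends, fell from 18.7 ± 1.24 to 6.38 ± 2.69 CPM, and RAD51AP1 from 18.3 ± 2.14 to 8.03 ± 1.91 CPM. Of 24 condensin and cohesin genes 9 fell and none rose, with 14 lower under the block. NCAPG2, SMC2 and SMC4, all of condensin, fell from 52.7 ± 6.96 to 25.1 ± 5.005 CPM, from 58.6 ± 4.68 to 28.2 ± 3.61 CPM and from 106 ± 14.7 to 34.0 ± 3.82 CPM. Within set 3-4 SMC2 and SMC4 were not called (adjusted p of 0.0511 and 0.112).

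Among 26 cyclins, CDKs, CDK inhibitors and RB family genes 5 rose and 10 fell. CDKN2B (chromosome 9, 22002903 to 22009363, minus strand), the inhibitor p15 of CDK4 and CDK6, held 17.4, 16.5, 8.03 and 8.92 CPM in the NS libraries and 72.0, 84.4, 36.2 and 31.2 CPM in the BRG1 libraries. It rose by 2.14 ± 0.36 (adjusted p = 0.000727). CDK6 held 191, 172, 163 and 205 CPM and then 60.5, 70.4, 46.9 and 48.6 CPM and fell by 1.69 ± 0.21 (adjusted p = 6.79e-05). E2F7, an atypical E2F repressor, fell from 11.8 ± 4.51 to 3.07 ± 0.414 CPM. None of the 3, picked by smallest adjusted p, overlapped between groups, as was so for 3031 of all 3284 called genes. The higher count was 3 without BRG1 1 or BRG1 2.

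Genes of protein synthesis and turnover followed no single direction. Of 40 genes of ribosome biogenesis 2 rose and 1 fell, of 20 cytosolic aminoacyl-tRNA synthetases 2 rose, of 38 mitochondrial ribosome genes 5 rose and 1 fell, and of 34 proteasome subunits 1 rose, PSMD2, from 446 ± 145 to 876 ± 184 CPM. The pooled PSMD2 call was lost without any 1 library other than NS 3 or NS 4 (adjusted p of 0.0651 to 0.159), with RLE scaling (0.0620) and with no filter (0.0742). PSMD2 was called within set 1-2 and within set 3-4 (edgeR adjusted p of 0.000187 and 0.00344). The shares of these 4 lists are near or below those of all genes. With the block the counts were 7 and 5, 3 and 1, 6 and 4, and 2 and 3. Without 1 library the higher counts went as low as 1, 0, 3 and 0, and lower synthetases or proteasome subunits appeared without NS 2 or without BRG1 3 or BRG1 4. MRPL15 and MRPS10 rose from 57.4 ± 0.849 to 93.3 ± 9.81 CPM and from 55.9 ± 7.402 to 92.1 ± 14.3 CPM, and MRPL1 fell from 33.1 ± 7.04 to 13.9 ± 1.84 CPM. Of 31 core spliceosome genes 5 fell, SRSF3 from 297 ± 12.9 to 183 ± 15.97 CPM among them, with 11 lower under the block and 2 or 3 without any 1 library other than NS 4. Of 15 haem genes 2 rose and 1 fell, also near or below those shares, the lower one being FLVCR1, the exporter of haem, from 42.7 ± 3.70 to 24.2 ± 2.47 CPM, with 4 and 3 under the block. The haem calls rested on few libraries, with 0 higher without BRG1 1, 3, 4, NS 1 or NS 2, 1 without BRG1 2 or NS 4 and 2 lower without NS 1 or NS 2.

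**Figure D3:**
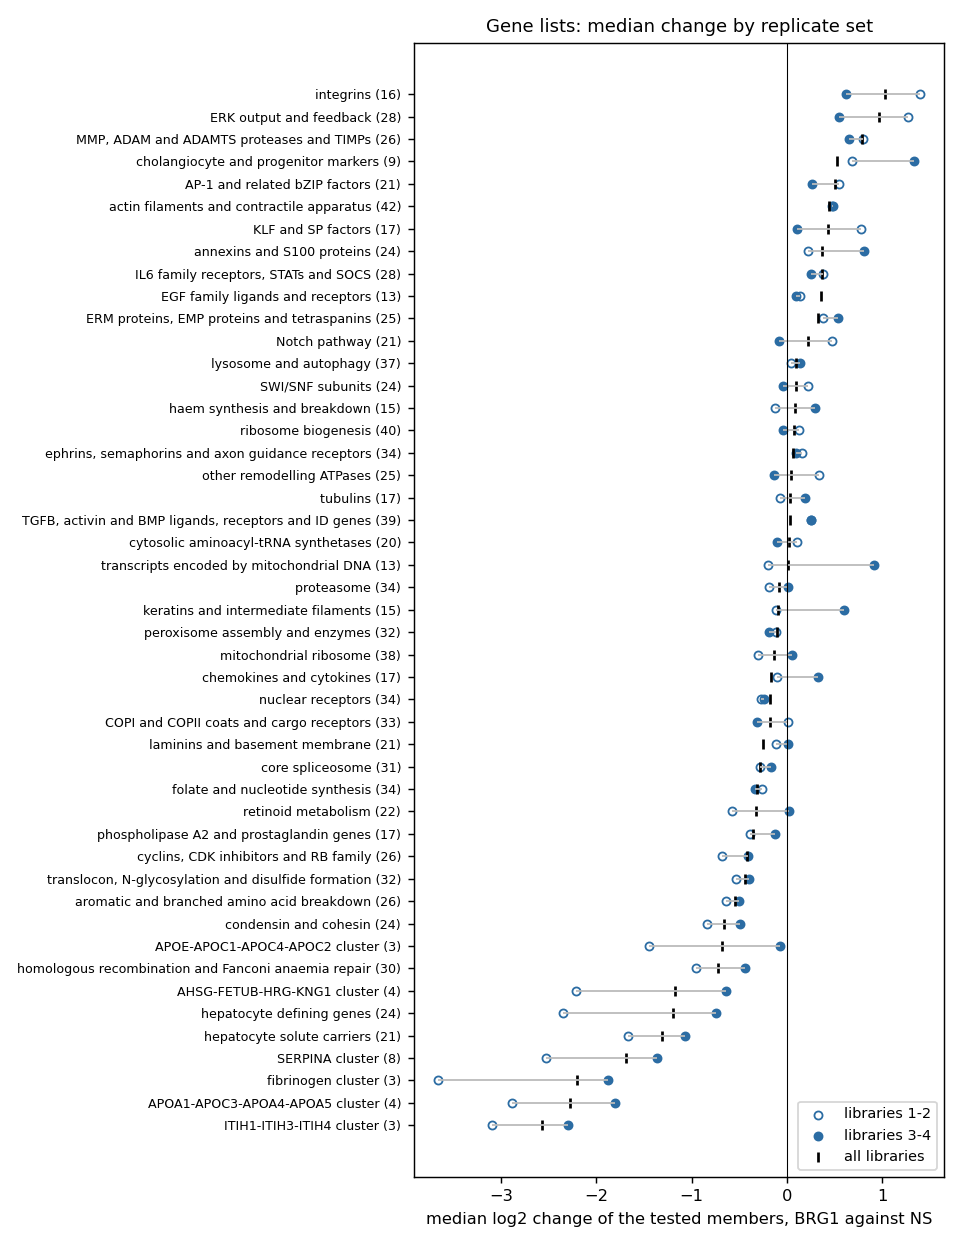
Median log2 change (BRG1 minus NS) of gene lists with at least 3 tested members, within libraries 1 and 2 and within libraries 3 and 4. Hepatocyte defining genes and the SERPINA and fibrinogen gene clusters lie left of 0 in both sets and further left in set 1-2, while integrins, ERK output and proteases lie right of 0 in both.

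Several adhesion, cytoskeletal and protease genes rose. Of 16 integrins 8 rose and 1 fell, with a median change of 1.03 (1.40 in set 1-2 and 0.62 in set 3-4), and summed levels were 1025, 964, 1082 and 1308 CPM in NS libraries 1 to 4 and 3462, 4023, 2431 and 2713 CPM in BRG1 libraries 1 to 4. ITGA5 (chromosome 12, 54395261 to 54419460, minus strand), the fibronectin receptor subunit, held 4.81, 5.29, 2.95 and 2.88 CPM in the NS libraries and 63.3, 64.7, 83.7 and 91.5 CPM in the BRG1 libraries and rose by 4.25 ± 0.44 (adjusted p = 1.96e-05). ITGA2, of the collagen receptor, rose from 94.1 ± 45.2 to 614 ± 127 CPM, and ITGB1, the beta chain both share, from 429.9 ± 52.6 to 1221 ± 326 CPM. ITGA5 changed by 3.67 in set 1-2 and 4.91 in set 3-4, and ITGA2 by 3.51 and 2.06.

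Of 42 actin and contractile genes 10 rose and 4 fell, and 21 and 5 were called with the block. PXN, paxillin of focal adhesions, held 83.2, 86.8, 112 and 110.3 CPM and then 416, 423, 457 and 468 CPM and rose by 2.17 ± 0.22 (adjusted p = 1.79e-05). CNN1, a calponin of smooth muscle, rose from 2.72 ± 1.44 to 22.8 ± 2.56 CPM. RAC2, a Rac otherwise of blood cells, rose from 0.664 ± 0.377 to 10.5 ± 2.84 CPM, ARHGAP31, which inactivates CDC42 and Rac, from 0.111 ± 0.0747 to 4.51 ± 1.36 CPM, and TIAM2, which activates Rac, from 10.9 ± 4.55 to 40.5 ± 13.6 CPM. Of 17 tubulins 4 rose, TUBB6 from 42.3 ± 14.6 to 162 ± 17.1 CPM, TUBA1A from 115 ± 16.2 to 365 ± 55.6 CPM and TUBB3 from 306 ± 81.6 to 805 ± 195 CPM among them. Tubulins are near-identical paralogs, so their split of reads is uncertain, none fell except 2 under the block and 1 without NS 4, and 2 rose without NS 2, when TUBB3 had an adjusted p of 0.0540.

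Of 26 MMP, ADAM and ADAMTS proteases and TIMPs 10 rose and 1 fell, with a median change of 0.79 (0.80 in set 1-2 and 0.66 in set 3-4). Without BRG1 1 or BRG1 2 the higher count was 6, and without NS 4 the lower was 2. MMP14 (chromosome 14, 22836557 to 22849027, plus strand), a membrane-bound collagenase, held 22.4, 18.6, 18.7 and 19.0 CPM in the NS libraries and 239, 217, 163 and 164 CPM in the BRG1 libraries and rose by 3.31 ± 0.25 (adjusted p = 1.57e-06). ADAM19 rose from 6.60 ± 0.711 to 82.0 ± 32.5 CPM, and MMP3, stromelysin, from 1.68 ± 0.753 to 9.82 ± 1.94 CPM. Summed levels of the list lay close together within each group, 871 to 1070.2 CPM in the NS libraries and 2152 to 2308 CPM in the BRG1 libraries. Laminin and basement membrane genes went both ways, 3 of 21 higher and 5 lower. LAMB3 and LAMC3, laminin chains, rose from 0.657 ± 0.210 to 8.48 ± 0.325 CPM and from 1.08 ± 0.257 to 7.49 ± 0.286 CPM, and COL4A6, a chain of collagen IV, fell from 24.5 ± 5.42 to 8.24 ± 1.97 CPM.

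Of 25 ERM, EMP and tetraspanin genes 9 rose and 3 fell. MSN, moesin, which ties membrane to actin, rose from 0.659 ± 0.337 to 9.56 ± 2.72 CPM, and CD9, a tetraspanin, from 8.25 ± 1.27 to 56.0 ± 9.78 CPM. Of 24 annexins and S100 proteins 8 rose and 2 fell, with 5 higher without BRG1 1 and 1 lower without BRG1 3, BRG1 4, NS 1 or NS 2. S100A11, a calcium-binding protein of growing epithelia, held 53.9, 56.0, 27.5 and 30.7 CPM and then 261, 212, 271 and 240.1 CPM and rose by 2.55 ± 0.28 (adjusted p = 2.78e-05). S100A6 rose from 70.7 ± 18.2 to 234 ± 51.1 CPM, and S100A13, which overlaps S100A1, from 30.9 ± 3.53 to 69.9 ± 11.7 CPM. Of 15 keratin and other intermediate filament genes 2 rose and 1 fell, near or below the shares of all genes, with 5 and 3 under the block and 2 lower without NS 3 or NS 4. KRT15, a keratin of stratified epithelia, rose from 2.74 ± 1.63 to 30.5 ± 9.30 CPM, and LMNB1, the lamin of growing nuclei, fell from 139 ± 18.9 to 49.6 ± 18.5 CPM. Of 9 tested markers of bile duct and progenitor cells 4 rose and 1 fell. SOX4, a progenitor factor, rose from 89.3 ± 27.96 to 297 ± 57.9 CPM, as did KRT19, and SPP1, osteopontin, fell from 656 ± 109 to 81.0 ± 24.5 CPM, so the markers of that cell type did not move 1 way.

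**Figure D4:**
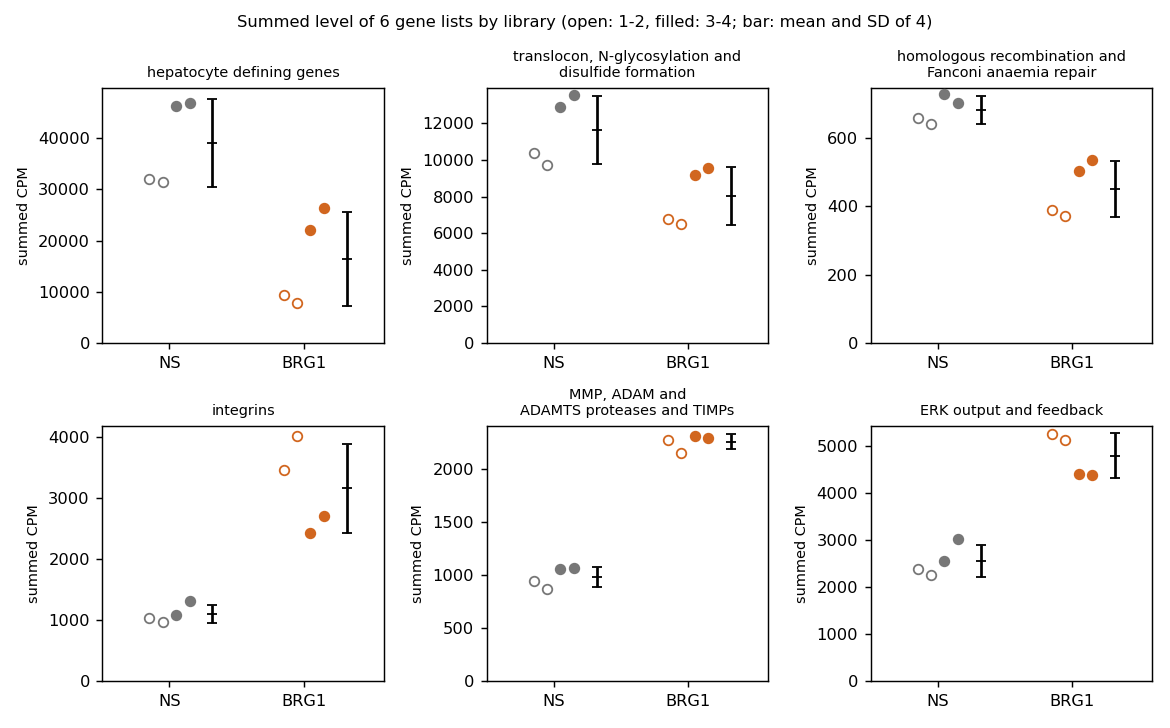
Summed CPM of 6 gene lists in each of the 8 libraries, NS and BRG1 as separate colours. Summed integrins and proteases are higher in every BRG1 library than in any NS library, and summed hepatocyte defining genes are lower in every BRG1 library (7805 to 26416 CPM) than in any NS library (31441 to 46799 CPM).

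Genes of EGF and ERK signalling, which carry growth signals from the membrane to the nucleus, were mostly higher where called. Of 13 EGF family ligands and receptors 5 rose and 3 fell, and the lower count was 1 without NS 3 or NS 4. EGFR (chromosome 7, 55019021 to 55211628, plus strand), the receptor, held 51.5, 45.6, 32.5 and 30.3 CPM in the NS libraries and 228, 333, 152 and 158 CPM in the BRG1 libraries and rose by 2.45 ± 0.28 (adjusted p = 4.22e-05). HBEGF, its heparin-binding ligand, rose from 3.67 ± 1.12 to 31.2 ± 11.52 CPM. Of 28 genes of ERK output and feedback 17 rose and 1 fell, with a median change of 0.96 (1.27 in set 1-2 and 0.55 in set 3-4). The fallen one was not called without any 1 library other than BRG1 4, NS 1 or NS 2. DUSP5, a phosphatase of ERK, rose from 21.7 ± 7.36 to 152 ± 28.4 CPM, SPRY4, a feedback inhibitor, from 78.5 ± 33.5 to 285 ± 27.96 CPM, and FOSL1, the AP-1 subunit FRA1, from 24.9 ± 1.33 to 153 ± 8.84 CPM.

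Called AP-1 and KLF factors were mostly higher. Of 21 AP-1 and related bZIP genes 6 rose and 2 fell, with 11 and 2 under the block. JUNB rose from 16.04 ± 3.59 to 46.5 ± 3.38 CPM and FOSL2 from 26.3 ± 3.29 to 62.5 ± 14.1 CPM, beside FOSL1. The lower count was 0 without BRG1 1 and 1 without any other 1 library. Of 17 KLF and SP factors 7 rose and 1 fell, and the fallen one was not called without BRG1 1 or BRG1 2. KLF2, a factor of quiescent endothelium, rose from 0.414 ± 0.0921 to 3.60 ± 0.700 CPM, KLF4, a reprogramming factor, from 1.18 ± 0.4998 to 7.98 ± 3.62 CPM, and KLF11 from 5.33 ± 1.25 to 13.03 ± 3.21 CPM.

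Other signalling pathways changed in part. Of all genes tested 12.5% were higher and 9.97% lower, and under the block 2856 and 2462 of 14621. Of 39 genes of TGFB, activin and BMP signalling 8 rose and 5 fell, the lower share near that of all genes. Under the block 12 rose and 5 fell, and 3 were lower without BRG1 1 or NS 3. SMAD3, which carries the TGFB signal, rose from 56.7 ± 11.8 to 141 ± 39.4 CPM, and GDF11, a ligand, fell from 9.30 ± 0.268 to 3.50 ± 0.599 CPM, in addition to BMP6. Of 21 Notch genes 6 rose and none fell, with 8 and 2 under the block. DLL4 (chromosome 15, 40929333 to 40939073, plus strand), a Notch ligand, held 0.825, 0.480, 0.461 and 0.418 CPM and then 10.8, 8.79, 8.61 and 10.7 CPM and rose by 4.12 ± 0.28 (adjusted p = 5.56e-07). JAG2, another ligand, rose from 0.591 ± 0.457 to 3.81 ± 1.998 CPM, and HES2 from 2.44 ± 1.23 to 9.56 ± 4.26 CPM. Of 28 genes of IL6 family receptors, STATs and SOCS 6 rose and none fell, with 10 and 2 under the block. JAK1, the kinase of these receptors, rose from 108 ± 5.61 to 203 ± 48.6 CPM, JAK2 from 6.36 ± 0.690 to 16.6 ± 6.91 CPM and SOCS3, their inhibitor, from 1.41 ± 0.404 to 3.58 ± 0.416 CPM. JAK2 was not called within set 3-4 (adjusted p = 0.0958). Of 17 chemokines and cytokines 6 rose and 3 fell, and the lower count was 1 without BRG1 1 or BRG1 3. CCL5, which attracts T cells, rose from 0.756 ± 0.486 to 19.6 ± 4.51 CPM, LIF, an IL6 family ligand, from 10.5 ± 1.78 to 57.9 ± 12.5 CPM, and CSF1, which feeds macrophages, from 29.97 ± 3.77 to 141 ± 11.7 CPM. Of 34 guidance genes 8 rose and 6 fell, with 2 lower without NS 3 and 3 without NS 4. NRP1, a semaphorin and VEGF coreceptor, rose from 47.8 ± 17.2 to 113 ± 25.1 CPM, PLXNA2, a plexin, from 24.9 ± 2.02 to 109 ± 24.3 CPM, and SEMA4B from 16.8 ± 2.15 to 44.0 ± 7.67 CPM.

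Of 17 genes of phospholipases A2 and prostaglandins 1 rose and 3 fell, with 3 and 6 under the block and 2 higher without BRG1 3, BRG1 4, NS 1 or NS 2. PTGES, which makes prostaglandin E2, rose from 0.246 ± 0.136 to 4.71 ± 1.73 CPM, and PLA2G2A, a secreted phospholipase, fell from 29.6 ± 14.7 to 3.56 ± 0.765 CPM. Of 34 nuclear receptors 11 fell and 3 rose, with 15 and 6 under the block. NR2F1, COUP-TFI, fell from 25.1 ± 2.68 to 9.002 ± 1.84 CPM, and PPARD, a fatty acid receptor, rose from 28.9 ± 6.39 to 94.8 ± 15.3 CPM. Of 25 remodelling ATPases outside SWI/SNF 2 rose and 3 fell, shares near or below those of all genes. HELLS, of DNA methylation, fell from 58.2 ± 3.84 to 23.8 ± 5.28 CPM and SMARCA1, of the ISWI family, from 258 ± 25.5 to 159.9 ± 3.22 CPM. The higher count was 0 without BRG1 1 or BRG1 2, 1 without BRG1 4, NS 2, NS 3 or NS 4 and 4 under the block.

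Of the called genes, 40 had no more than 3 counts over the 4 libraries of a group, 31 of them in NS and 9 in BRG1. For KCTD14 the 4 NS libraries summed to 0 counts and the 4 BRG1 libraries to 501, at least 124-fold higher when 0 is set to a floor of 3 summed counts. MYO7B, a myosin of the intestinal brush border, had 0 and 106 counts, SLC6A17 0 and 59, C3AR1, a complement receptor, 0 and 56 and SLCO1B3, an uptake carrier of hepatocytes, 0 and 52. XYLT1, which starts the sugar chains of proteoglycans, rose from 3 to 334 counts, a ratio of 82.8 (95% counting interval 28.1 to 403). BEST3, a chloride channel, went from 2 to 203 (75.5, 20.6 to 627), and ALDH1A3, which makes retinoic acid, from 2 to 88 (32.7, 8.79 to 274). SNAI2, the repressor Slug, rose from 1 to 30 (22.3, 3.71 to 910). PPP1R1A, an inhibitor of protein phosphatase, had 15 counts in NS and 0 in BRG1, at least 6.73-fold lower, and PLA2G3 fell from 52 to 3 (23.3, 7.55 to 117). Intervals and floors cover counting error only. Overlap with other expressed genes was not checked for the genes of this paragraph, so their split of reads may be uncertain.

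A few genes changed in opposite directions or by unlike amounts between the sets. Of 25 named genes with a set difference that passed, 2 kept it with each library left out in turn, HAMP and BHLHE40. HAMP (chromosome 19, 35280716 to 35285143, plus strand), the hormone hepcidin that limits iron export and is a target of BMP6, held 192, 213, 44.7 and 23.8 CPM in NS libraries 1 to 4 and 14.9, 13.5, 83.7 and 69.0 CPM in BRG1 libraries 1 to 4. It fell by 3.83 in set 1-2 and rose by 1.17 in set 3-4, a difference of 5.005 ± 0.47 (adjusted p = 0.00103), and BMP6 rose in both. BHLHE40 (chromosome 3, 4979116 to 4985323, plus strand), a repressor that answers hypoxia and the clock, held 12.6, 11.7, 49.3 and 65.2 CPM and then 72.0, 73.2, 62.9 and 61.5 CPM. It rose by 2.57 in set 1-2, with a change of 0.12 in set 3-4, and its NS level was higher in set 3-4.

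ANGPTL8, which blocks lipoprotein lipase and overlaps DOCK6, held 8.16, 8.65, 17.8 and 16.7 CPM and then 0.237, 0.310, 7.57 and 7.17 CPM, with changes of −4.93 and −1.23. SLC22A18, a transporter of the imprinted region on chromosome 11, held 29.6, 39.6, 4.70 and 4.09 CPM and then 15.2, 19.0, 15.7 and 9.38 CPM, with changes of −1.01 and 1.52. ATOH8, a BMP-responsive factor, held 56.0, 55.3, 4.24 and 2.51 CPM and then 25.2, 26.4, 8.92 and 6.19 CPM, with changes of −1.11 and 1.22. PRODH2, which breaks down hydroxyproline, had changes of −3.92 and −0.62. These 4 set differences were lost without at least 1 library, ANGPTL8 without BRG1 1, BRG1 2 or NS 4 (adjusted p of 0.0507, 0.0597 and 0.0613), SLC22A18 without NS 4 (0.0754), ATOH8 without 6 of the 8 (0.0794 to 0.200) and PRODH2 without any 1 of the 8 (0.0899 to 0.218).

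**Figure D5:**
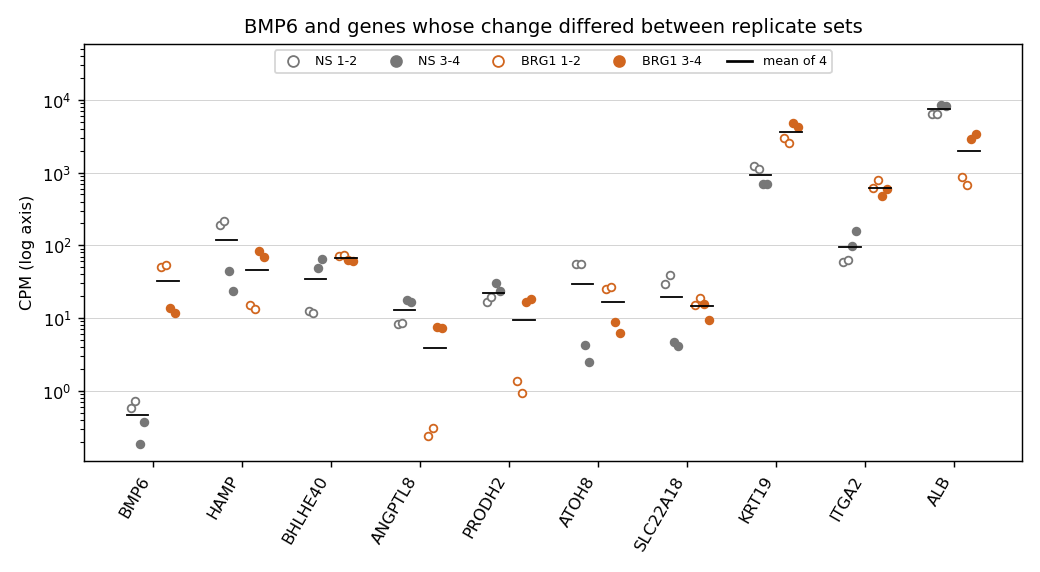
CPM (log axis) in each of the 8 libraries of BMP6 and of 9 genes whose change differed between libraries 1-2 and 3-4, NS and BRG1 as separate colours. HAMP is lower in BRG1 1 and 2 than in NS 1 and 2 and higher in BRG1 3 and 4 than in NS 3 and 4, and BHLHE40 differs between groups most in libraries 1 and 2.

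The same genes were set beside the BRM and double knockdowns, which share the NS libraries with the BRG1 comparison. A change after BRG1 knockdown differed from that after BRM knockdown for 4957 of 14621 genes (33.9%). BRM has 2 libraries of set 1-2 and 1 of set 3-4, against 2 and 2 in NS and BRG1, so 2 further fits were made after the data were seen. With a set term 7659 genes differed (52.4%), all 4957 among them, and within libraries 1 and 2 of each group 7461 (51.0%), with 4833 of the 4957. All 10 largest increases differed from BRM in each of the 3 fits. Their median log2 change was 4.96 for BRG1, −0.55 for BRM and 3.02 for the double knockdown. In the double knockdown all 10 were called higher and 7 were smaller than after BRG1 alone. These genes were chosen for a large BRG1 change, which favours smaller values in any other group. SMARCA4 itself changed by −2.73 in the double knockdown against −3.46 after BRG1 alone, a difference that passed (edgeR adjusted p = 0.00858). Its part in the smaller changes was not tested. Of the 9 largest decreases other than SMARCA4, 8 differed from BRM, and the medians were −3.20, −0.93 and −2.72. COL2A1 was −3.09 after BRG1 and 1.90 after BRM knockdown, and ACSM3 −3.24 and 1.29. The BRM change passed for ACSM3 (adjusted p = 0.0187) and not for COL2A1 (0.0663), which passed with a set term (0.000485). Of the 8 increases by CPM 6 differed from BRM (medians 1.86, −0.60 and 1.32) and of the 8 decreases 7 did (−1.91, 0.48 and −1.33). ALB was −1.92 after BRG1 and 1.19 after BRM knockdown, where the change did not pass (adjusted p = 0.104) but did with a set term (0.0272). The change differed between double and BRG1 knockdown for 1582 genes (10.8%). In the authors' deposited table of this comparison 3987 genes were called, 2064 higher and 1923 lower, and 3277 were shared with the 3284, all with the same sign, or 82.2% of the deposited and 99.8% of the present calls.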

How the data were processed

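The authors deposited estimated counts for each gene symbol, as whole numbers without scaling to depth. The submitters' processing notes name GRCh38, kallisto and DESeq2. Versions, transcript annotation and strandedness were not given in the sources used here. This quantifier divides reads shared by similar transcripts by estimation, so paralogs and overlapping genes are uncertain. Per the file headers, the authors' comparison table holds a normalized mean per gene (a signal), a log2 fold change, its SE, the Wald score and a raw and adjusted p-value.

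The 15 libraries were fitted together in edgeR 4.0.16 (R 4.3.3, limma 3.58.1) on group means with the robust quasi-likelihood F test and TMM scaling, after filterByExpr on the group kept 14621 of 35012 symbols. A second fit with a mean per group and set gave changes within libraries 1-2 and 3-4 and their difference. Tests were two-sided, the SE is the log2 change divided by the square root of F, and Benjamini-Hochberg adjustment ran over all genes tested at 0.05. GENCODE v29 matched 33662 symbols for coordinates. Promoters came from RefSeq.

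Named genes were, first, the 10 increases and 10 decreases largest by their smaller within-set change, called pooled and in both sets, mean at least 5 CPM, with no overlap between groups. Others were the 8 largest each way in CPM among these, up to 3 called members per list by adjusted p with 1 sign in both sets, 4 each way with the largest set difference and 4 with opposite signs. Members and lists (52 lists, 1262 entries, 3 unmatched) were chosen with earlier results of these data known. Some genes taken by these rules are given only in counts.

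The labels do not say what a replicate number shares. Deviations from the group means correlated at 0.427 to 0.565 for every same-numbered NS and BRG1 pair. Same-set pairs of other numbers gave 0.293 to 0.574 and pairs of different sets were negative, so pairing by number was not told apart from the set. The main fit used group means without pairing, so its spread includes the difference between sets. Pairing by number entered only as the replicate block. Alternatives were RLE and upper-quartile scaling, DESeq2 1.42.0, no filter, 1 CPM in 4 libraries, 8 libraries only, a set term, the replicate block, each library left out and each set alone. In simulated data of 14297 genes, 67, 67 and 66 were changed 1.5-, 2- and 4-fold. The pooled fit recovered 1.49, 41.8 and 92.4% of them with 0 false calls, and both sets recovered 2.99, 56.7 and 98.5%. With so few changed genes the adjusted threshold was stricter than in the real data.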

Additional observations from a re-analysis of the deposited data

Results flagged for a closer look

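In groups of 4 libraries, 7 of 194 groups checked held a library whose gap to its nearest neighbour took an unusual share of the range. These were EHD2 in NS 1 (2.14 CPM), GPRC5A in NS 4 (20.6 CPM), APOA5 in NS 3 (26.4 CPM), SMARCA4 in NS 2 (297 CPM) and in BRG1 4 (24.4 CPM), SMARCA2 in NS 2 (33.2 CPM), and the summed laminin and basement membrane list in BRG1 2 (3359 CPM). Chance gives about 1 in 20 for 4 like libraries. Each group here joins libraries 1-2 and 3-4, which stand apart, so that rate need not hold.

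For 25 named genes the change in libraries 3-4 differed from that in libraries 1-2 by edgeR's test of the difference. The genes with smaller falls in libraries 3-4 were AKR1B10 (difference of 1.92 on the log2 scale), SMIM24 (2.35), ALB (1.63), DHRS2 (1.52), FGB (1.75), FGG (1.91), SLC47A1 (1.26), ALDH1A1 (0.95), ALDH1L1 (2.64), RAD54L (1.59), PLA2G2A (1.75), PLA2G12B (1.87), ANGPTL8 (3.70) and PRODH2 (3.30). Larger rises there were those of KRT19 (1.46) and ITGA5 (1.24). Smaller rises were those of ITGA2 (−1.45) and BHLHE40 (−2.46). HAMP (5.00), NSUN5P2 (3.74), ATOH8 (2.33) and SLC22A18 (2.54) went from lower to higher, and AC138811.2 (−5.43), RSC1A1 (−3.52) and AC002996.1 (−2.47) from higher to lower. HAMP and BHLHE40 passed with each library left out, and the other 23 were lost without at least 1 library. NSUN5P2, AC138811.2, RSC1A1 and AC002996.1 each overlap another expressed gene.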

How the results depend on the processing

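Of 160 named pooled changes none turned its sign in any setting run. All but SMARCA2 were chosen as called in the pooled fit with 1 sign in both sets, so a turned sign was unlikely from the start. Genes named for opposite changes between the sets (HAMP, SLC22A18, ATOH8) are not among these. Lower calls outnumbered higher ones with the 1 CPM filter (1569 against 1567), without BRG1 4 (1588 against 1577) and with the 8-library block (2700 against 2649). Pooled calls (3284, 1826 higher and 1458 lower) numbered 5720 (3064 and 2656) with a set term and 5921 (3171 and 2750) within libraries 1-2. With the replicate block they were 5318 (2856 and 2462) over 15 libraries and 5349 over 8 libraries, where 2700 were lower. All 3284 were kept with the set term and the 15-library block. Of 160 named changes, 159 kept their side of the threshold with the block and SMARCA2 passed. With 1 library left out there were 2384 to 3165 calls, 1241 to 1807 higher and 1143 to 1588 lower, and 149 to 155 named changes kept their side.

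Genes called alike in both sets (2805) numbered 4377 with 8 libraries only and 1798 to 2243 with 1 library left out. Those with a set difference (364) numbered 1063 by DESeq2, 1412 with no filter, 3767 with 8 libraries only and 24 to 126 with 1 left out. Opposite calls (43) numbered 99 with no filter, 243 with 8 libraries only and 9 to 37 with 1 left out. Genes differing between BRG1 and BRM (4957) numbered 7659 with a set term and 7461 within libraries 1-2, settings chosen after seeing the data. The cause was not tested. Leaving out a library leaves 1 in its group and set, assumed to vary like the others. Higher genes were 49.5 to 57.8% of calls over the settings, against 1826 of 3284. The self-test recovered few changes of 1.5-fold, but it changed far fewer genes than the 3284 called here. Its adjusted threshold was therefore stricter, so it sets no detection limit for these data. Some smaller changes were called, TMED10 among them (log2 change of −0.49, edgeR adjusted p = 0.0104).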
